A study of Rattus norvegicus with 35 samples.

Results

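Among the single rat converted hypoblast stem cells of this series, 19 of 34 held at least 4000 transcript records with a read, and these gene-rich cells were split into classes chosen by their Atf3 level. Atf3 encodes a transcription factor that many kinds of cell stress switch on. A cell was called Atf3-high at 50 CPM or more (CPM, the read count of a record scaled to a library total of 1000000 reads) and Atf3-low below that. This gave 10 Atf3-high and 9 Atf3-low cells, and the other 15 cells, with fewer records, were left out. All cells carry the same labels. They were derived from rat embryonic stem cells grown in 2% fetal bovine serum with the factors EGF, PDGF and LIF, were passaged after an initial plating period, and were collected on day 12 of differentiation. Single cells were processed with the C1 microfluidic system, which captures each cell in a chamber of its own, and 1 library of the bulk population served as control. The labels name no culture, passage or batch, so the 2 classes come from what must be treated as 1 sample. The cells are not replicates, no p-value is given, and each value below describes these cells.

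The hypoblast, or primitive endoderm, is the embryonic layer that gives rise to yolk sac endoderm, both parietal and visceral, and Gata6, Gata4 and Sox17 are its defining transcription factors. Immediate early genes such as Fos, Dusp1 and Klf6 are transcribed within minutes of a stimulus without new protein synthesis, and dissociating a tissue or a culture into single cells is a known stimulus. A second stress programme, the integrated stress response, slows translation, raises the factor Atf4 and through it Atf3, Ddit3 and Chac1. ATF3, FOS and JUN proteins are leucine zipper factors that bind as pairs to the cAMP response element (CRE, TGACGTCA) or the AP-1 site (TGANTCA).

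The promoters of members of these programmes show where such elements lie. In RefSeq promoter windows of the rat build GRCr8 (250 bases before to 50 after a gene's start), a CRE was found in 1.83% of all 33469 windows, an AP-1 site in 7.33%, and the C/EBP-ATF element TGATGNAA, a target of ATF4 in mouse and human, in 3.98%. Both strands were searched, and each of the 4 windows printed here held a match to 1 of these 3 motifs only. Of the 22 windows matched to immediate early genes, 5 held a CRE (Jund, Ier2, Btg2, Dusp1 and Maff) and 0 an AP-1 site. The list's other genes, Fos, Jun, Egr3, Ier3, Nr4a3, Klf2 and Myc, were not searched. Of the 28 windows matched to integrated stress response genes, 1 held a CRE, 4 an AP-1 site and 6 a C/EBP-ATF element. The windows of a pair of immediate early genes with a CRE, of Ddit3 and of Chac1 are shown because the cells' values for these genes are described below. Capitals mark the CRE in Btg2 (chr13:48087641-48087940, minus strand) and in Dusp1 (chr10:17184603-17184902, plus strand), the AP-1 site in Ddit3 (chr7:65001445-65001744, plus strand) and the C/EBP-ATF element, read on the other strand, in Chac1 (chr3:126795881-126796180, plus strand), with each sequence given 5′ to 3′ on the gene's strand. A match is a string of letters and does not show that a factor was bound.
Btg2: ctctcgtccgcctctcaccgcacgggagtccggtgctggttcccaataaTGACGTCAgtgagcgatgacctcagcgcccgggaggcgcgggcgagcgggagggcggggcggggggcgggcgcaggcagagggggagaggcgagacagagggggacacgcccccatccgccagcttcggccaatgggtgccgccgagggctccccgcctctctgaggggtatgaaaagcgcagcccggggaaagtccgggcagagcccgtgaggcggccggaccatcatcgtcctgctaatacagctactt
Dusp1: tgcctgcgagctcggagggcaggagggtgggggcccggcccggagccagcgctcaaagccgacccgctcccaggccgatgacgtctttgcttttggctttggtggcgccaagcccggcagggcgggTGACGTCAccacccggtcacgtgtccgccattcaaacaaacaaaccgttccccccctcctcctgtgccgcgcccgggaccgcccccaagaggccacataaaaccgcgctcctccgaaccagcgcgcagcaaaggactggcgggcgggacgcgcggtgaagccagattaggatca
Ddit3: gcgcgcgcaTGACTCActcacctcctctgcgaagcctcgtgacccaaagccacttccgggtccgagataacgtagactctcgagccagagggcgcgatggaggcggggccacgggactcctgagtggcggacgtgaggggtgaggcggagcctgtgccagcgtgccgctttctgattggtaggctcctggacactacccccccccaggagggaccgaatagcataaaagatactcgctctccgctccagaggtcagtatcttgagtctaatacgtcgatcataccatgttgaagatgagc
Chac1: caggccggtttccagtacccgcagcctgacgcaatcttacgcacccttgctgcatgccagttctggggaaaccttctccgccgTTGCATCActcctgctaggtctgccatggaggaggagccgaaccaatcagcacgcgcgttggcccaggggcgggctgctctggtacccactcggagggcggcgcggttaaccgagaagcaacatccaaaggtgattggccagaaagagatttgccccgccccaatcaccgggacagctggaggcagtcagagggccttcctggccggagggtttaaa

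Read totals of the 2 classes were alike, while the Atf3-high cells held somewhat more records. Libraries held 175639 to 347297 reads (median 296706) in the Atf3-high cells and 95359 to 379141 reads (median 307843) in the Atf3-low cells. The Atf3-high cells had 4255 to 5496 records with a read (median 4992.5) and the Atf3-low cells 4028 to 5514 (median 4470), so the ranges overlapped. After each cell was thinned to 100000 reads the medians were 4477.5 and 4132.5, the latter over the 8 Atf3-low cells deep enough. Across the 19 cells, which count as 1 sample and differ in depth, Spearman's rho of Atf3 with the number of records was 0.19 and with reads 0.050. The cell labelled C46 stands apart. It was the shallowest of the 19, with 95359 reads and 4028 records, it was the only one to hold Col1a2, a fibrillar collagen gene of fibroblasts, at 5 CPM or more, and it had 21 CPM of Gata6 and 0 of Gata4. C46 is an Atf3-low cell, and values without it are given beside several of the results it moves.

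Atf3 itself chose the classes and is given as a description only. It was 57.3 to 708 CPM (median 296) in the Atf3-high cells and 0 to 24.9 CPM (median 5.95) in the Atf3-low cells. Summed over cells it had 999 reads in the Atf3-high class, or 349.8 CPM of the pooled reads (exact Poisson 95% interval 328 to 372), and 21 reads, or 8.15 CPM (5.04 to 12.5), in the Atf3-low class. Such intervals describe counting error alone and are too narrow where 1 molecule added several reads. The member just above the threshold was C72, with 57.3 CPM from 16 reads, and the cell just below it was C26, with 24.9 CPM from 9 reads. In the Atf3-low class 4 cells had 0 Atf3 reads and 5 had 2 to 9 reads. A count of 0 allows up to 3 reads, and 1 read was worth 2.64 to 10.5 CPM in an Atf3-low cell. At the other threshold, C46 was just inside with 4028 records, and C10, with 3976 records and 109 CPM of Atf3, was just outside. The other 14 gene-poor cells had 0 Atf3 reads.

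**Figure D1:**
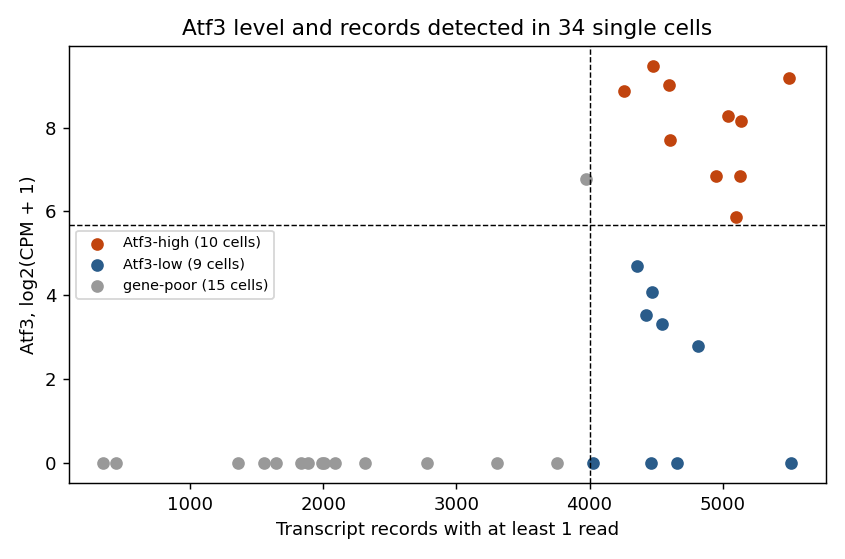
Atf3 level, as log2(CPM + 1), against the number of transcript records with at least 1 read in each of the 34 cells, with the 4000 record minimum and the 50 CPM threshold as dashed lines. The 10 Atf3-high cells lie at 57.3 to 708 CPM, and 1 gene-poor cell, C10, reaches the same level with 3976 records.

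For Fos, an AP-1 subunit, and Ddit3, the difference between the classes depended on the measure. In mean log2(CPM + 1) it was 2.22 for Fos and 1.03 for Ddit3. By the log2 ratio of mean CPM + 1 it was 1.78 and 0.11, and with the median of log2(CPM + 1) over cells 6.95 and 4.57. Fos and Ddit3 were markers set for these classes together with Atf3. Fos was 0 to 559.8 CPM (median 145) in the Atf3-high cells and 0 to 155 CPM (median 0) in the Atf3-low cells. It reached 5 CPM in 7 of 10 Atf3-high cells (exact Clopper-Pearson 95% interval 34.8% to 93.3%) and in 4 of 9 Atf3-low cells (13.7% to 78.8%). These intervals treat the cells as independent draws, though they count as 1 sample, and leave out read-counting error. They compare no conditions. The values of the classes overlapped. The mean of log2(CPM + 1) was 5.23 ± 3.84 (SD over 10 cells) against 3.01 ± 3.59 (SD over 9 cells). That is a difference of 2.22, and the SDs exceed it. Without C23 the difference was 2.80, and without any 1 of C05, C13, C15, C24, C32, C37, C43, C44, C46 and C80 it lay below 2, at 1.79 at the least. After thinning Fos differed by 1.65. The 4 Atf3-low cells with Fos (C25, C26, C38 and C40) also had a few Atf3 reads, and the 4 cells without an Atf3 read had 0 Fos reads. C24, the other Atf3-low cell, had 4 Atf3 reads and 0 CPM of Fos. Outside the classes, gene-poor cells with 0 Atf3 reads had Fos levels from 0 in C03 to 623 CPM in C30. With the threshold lowered to 5 CPM, which leaves the 4 gene-rich cells without an Atf3 read as the Atf3-low class, Fos differed by 5.29. In the other direction, C23 with 308 CPM of Atf3, C27 with 113 and C33 with 468 had no Fos read.

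Ddit3, which encodes the factor CHOP of the integrated stress response, was 0 to 230.3 CPM (median 26.2) in the Atf3-high cells and 0 to 361 CPM (median 0) in the Atf3-low cells. The highest value of all was in C05, a cell without an Atf3 read. Summed reads were 200 and 184, or 70.0 CPM (exact Poisson 95% interval 60.7 to 80.4) and 71.4 CPM (61.4 to 82.5) of pooled reads. The difference in mean log2(CPM + 1) was 1.03, and the log2 ratio of mean CPM + 1 0.11. Spearman's rho with Atf3 over the 19 cells was 0.57 for Fos and 0.043 for Ddit3.

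The comparison across the genome gives the background for the gene groups. Of 17201 records, 6117 had a mean of at least 10 CPM over the 19 cells and reached 5 CPM in at least 5 of them. The measure is the mean of log2(CPM + 1) over Atf3-high cells minus that over Atf3-low cells. The classes were chosen on Atf3 alone, and every other difference is a description of the same cells. Of the compared records, 475 (7.77%) were higher in Atf3-high cells by 2 or more and 207 (3.38%) were lower by 2 or more. The median difference was 0.19, and 57.1% of records had a difference above 0. A single record had every Atf3-high cell above every Atf3-low cell (0.0163% of those compared), and it was Atf3, while 0 records had the reverse. Without C46 the counts were 445 and 257 of 6002 records, with 356 and 175 records in common with those of all cells. These numbers count records past a size of difference, and with 1 sample no test of them exists.

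Immediate early genes held several of the larger differences. Of 29 genes on the list, 15 passed the filter on low values. Among those 15, 4 were higher by 2 or more (Klf6, Zfp36, Fos and Dusp1) and 0 were lower by 2 or more, beside 7.77% and 3.38% of all compared records. The median was 0.68, beside 0.19 over all records, and 13 of 15 members had a difference above 0. Without C46, 2 of 13 members (Klf6 and Zfp36) were higher by 2 or more, with a median of 0.87 beside 0.15. The number of these 15 members at 5 CPM or more was 5 to 13 in an Atf3-high cell (median 10) and 3 to 14 in an Atf3-low cell (median 7), and the highest of all was the Atf3-low cell C26. Of the 29 genes, 3 had no read in the Atf3-high class (Junb, Egr3 and Maff). In the Atf3-low class 8 had none (Fosl2, Junb, Egr1, Egr2, Egr3, Ier2, Nr4a3 and Klf2). The Atf3-high class has 10 cells against 9 and a higher median number of records per cell. The share of all records without a read in each class was not computed, so these counts have no background beside them.

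Klf6, a zinc finger transcription factor, had the highest mean CPM of the 15. It was 386 to 4067 CPM (median 1370.0) in the Atf3-high cells and 0 to 1812 CPM (median 581) in the Atf3-low cells. Cells C37, C15 and C13 were above the whole Atf3-low range, and the rest of the classes overlapped. The mean was 1721 ± 1218 CPM (SD over 10 cells) against 567 ± 591 CPM (SD over 9 cells), a ratio of 3.03, and the log2 difference was 2.93. It was 1.99 without C40, the 1 cell with no Klf6 read, and 2.56 after thinning. Spearman's rho with Atf3 was 0.62.

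Dusp1, a phosphatase that switches off MAP kinases, was 0 to 411 CPM (median 16.4) in the Atf3-high cells and 0 to 221 CPM (median 0) in the Atf3-low cells. Its 4 highest cells were C44, C80 and C13 of the Atf3-high class and C26 of the other. The difference of 2.15 lay below 2 without any 1 of C13, C24, C25, C32, C40, C43, C44, C46 and C80, and was 1.40 after thinning. Zfp36, which encodes an RNA-binding protein that destabilises cytokine messages, was 0 to 449 CPM (median 19.3) in the Atf3-high cells and 0 to 160.2 CPM (median 0) in the Atf3-low cells. C80 held 62% of the summed CPM in the Atf3-high class. The difference of 2.35 was 1.78 without C80, lay below 2 also without C27, and was 0.24 with the Atf3 threshold at 200 CPM.

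Other immediate early genes differed less. Btg2, an antiproliferative gene, was 0 to 394 CPM (median 152) in the Atf3-high cells and 0 to 271 CPM (median 41.7) in the Atf3-low cells, a difference of 1.86. Ccn1 and Ccn2, which encode matricellular proteins, differed by 0.90 and 0.14. The AP-1 genes Fosb and Jun, with differences of 0.18 and 0.39, and Myc, with 0.38, were picked for mention after their values were seen. C13 alone held 59.8% of the Ccn2 signal of the Atf3-high cells, with 2035 CPM. High values fell on different cells for different genes, with Zfp36 and Atf3 highest in C80, Fos and Klf6 in C37, Dusp1 in C44 and Btg2 in C27.

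**Figure D2:**
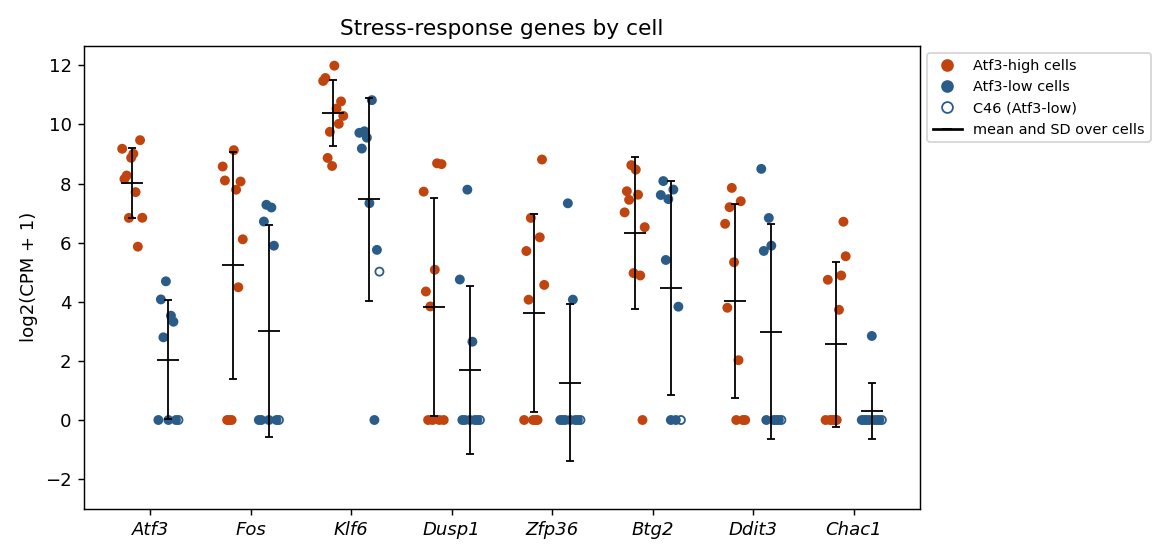
Levels of 8 stress-response genes, as log2(CPM + 1), with a point for each of the 10 Atf3-high (orange) and 9 Atf3-low (blue) cells, C46 as an open point, and bars for the mean and SD over cells. Apart from Atf3, which set the classes, the classes overlap for every gene shown.

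ERK feedback genes, which are induced by growth factor signalling and dampen it, had 3 of 11 members past the filter. Dusp6, an ERK phosphatase, was 0 to 227 CPM (median 3.40) in the Atf3-high cells and 0 to 10.5 CPM (median 0) in the Atf3-low cells. It reached 5 CPM in 5 of 10 and 2 of 9 cells, and the difference of 2.48 lay below 2 without any 1 of C27 and C44. Spry2 and Spry4, inhibitors of receptor tyrosine kinase signalling, differed by 1.13 and 1.31. At a threshold of 200 CPM these became −0.85 and −1.20. C72, the Atf3-high cell nearest the threshold, held 78.1% of the summed Spry4 CPM of the Atf3-high class.

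Integrated stress response genes held 1 difference past 2, while most members were above 0. Of 27 genes, 19 passed the filter. Among them 1 was higher by 2 or more and 0 lower, beside 7.77% and 3.38% of all compared records. The median was 0.37 beside 0.19, and 14 of 19 members (73.7%) were above 0 beside 57.1%. Without C46 the median was 0.39 beside 0.15, and 12 of 19 (63.2%) were above 0 beside 55.6%. The member past 2 was Chac1, a glutathione-degrading enzyme. It was 0 to 104 CPM (median 6.13) in the Atf3-high cells and 0 to 6.18 CPM (median 0) in the Atf3-low cells, so 5 of 10 and 1 of 9 cells reached 5 CPM. Its difference of 2.25 rests on 5 cells, led by C80 with 104 CPM, and lay below 2 without any 1 of C72, C80 and C96. Asns, which makes asparagine, and the transfer RNA synthetase genes Sars1, Nars1 and Wars1 were the most abundant members, with differences of −0.11, −0.32, 0.82 and 0.018. Single cells moved these: without C46 Sars1 differed by −0.72 and Wars1 by −0.98, without C27 Wars1 by 0.90, and without C33 Asns by 0.82. The Asns maximum of 4557 CPM was in C72, and C33 had no Asns read.

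ER chaperone genes mostly had differences above 0, heat shock genes had a median below that of all records, and 1 member in all was past 2. Of 18 ER chaperone genes, 16 had a record and passed the filter, with a median of 0.48 beside 0.19. Of these, 14 (87.5%) were above 0 beside 57.1% of all compared records. Without C46 the median was 0.44 beside 0.15, and 12 of 16 (75%) were above 0 beside 55.6%. After thinning the ER chaperone median was 0.48, and that of the immediate early genes 0.54. With all 19 cells 1 of the 16 was higher by 2 or more and 0 lower, beside 7.77% and 3.38% of all compared records. That member was Creld2, which encodes an ER stress-induced protein, and it was 24.3 to 590.3 CPM (median 240.5) in the Atf3-high cells and 0 to 200.5 CPM (median 126) in the Atf3-low cells. Its difference of 2.10 was 1.40 without C40, the lowest of 6 cells whose removal took it below 2 (C05, C15, C26, C40, C44 and C80). Hspa5, the main ER chaperone BiP, was 1319 to 4545 CPM (median 2699) in the Atf3-high cells and 722 to 5327 CPM (median 2084) in the Atf3-low cells. Hsp90b1, Pdia6 and Canx, a further ER chaperone, a disulfide isomerase and calnexin, differed by 0.10, 0.38 and −0.48, or 0.32, 0.43 and −0.25 without C46. Of 20 heat shock genes, 13 passed, with a median of 0.019. Of the 13, 0 were past 2 in either direction, beside 7.77% higher and 3.38% lower of all compared records. Hsp90ab1 was 7960.4 to 20799 CPM (median 14542) in the Atf3-high cells and 2632 to 17131 CPM (median 10235) in the Atf3-low cells, a difference of 0.56, or 0.33 without C46. Hspa8, Hsp90aa1 and Hspd1 differed by 0.047, 0.019 and −0.14. The record of the inducible heat shock gene Hspa1a had no read in either class, with the handling of multiply mapped reads unknown.

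Genes of other damage responses had medians below that of all records for the p53 and oxidative stress lists. Of 18 p53 target genes 9 passed the filter, with a median of −0.95, 3 above 0 and 1 lower by 2 or more. Xpc, a DNA damage sensor, was that member at −2.23, reached 5 CPM in 1 Atf3-high and 5 Atf3-low cells, and was −1.66 without C46. Without C43 it also lay within 2, and the list median without C46 was −0.61 over 8 members. Ccng1, a p53-induced cyclin, differed by −1.98, Plk2 by −0.95, Mdm2, which encodes the ubiquitin ligase of p53, by 0.078 and Aen by 0.30. Without C46 the last pair turned to −0.70 and −0.053. Of 16 oxidative stress genes all passed, with a median of −0.050. Gclc, the catalytic subunit of glutathione synthesis, was lower, at 0 to 797 CPM (median 68.7) in the Atf3-high cells and 13.5 to 833 CPM (median 295) in the Atf3-low cells. Its difference was −2.62, and it was −0.53 with the threshold at 200 CPM. Among 6 compared apoptosis regulators Bcl2l1, which encodes the survival protein Bcl-xL, was lower, reaching 5 CPM in 3 of 10 against 6 of 9 cells, with a difference of −2.62. The NF-kB and inflammatory list had 2 of 15 genes past the filter and 0 past 2.

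**Figure D3:**
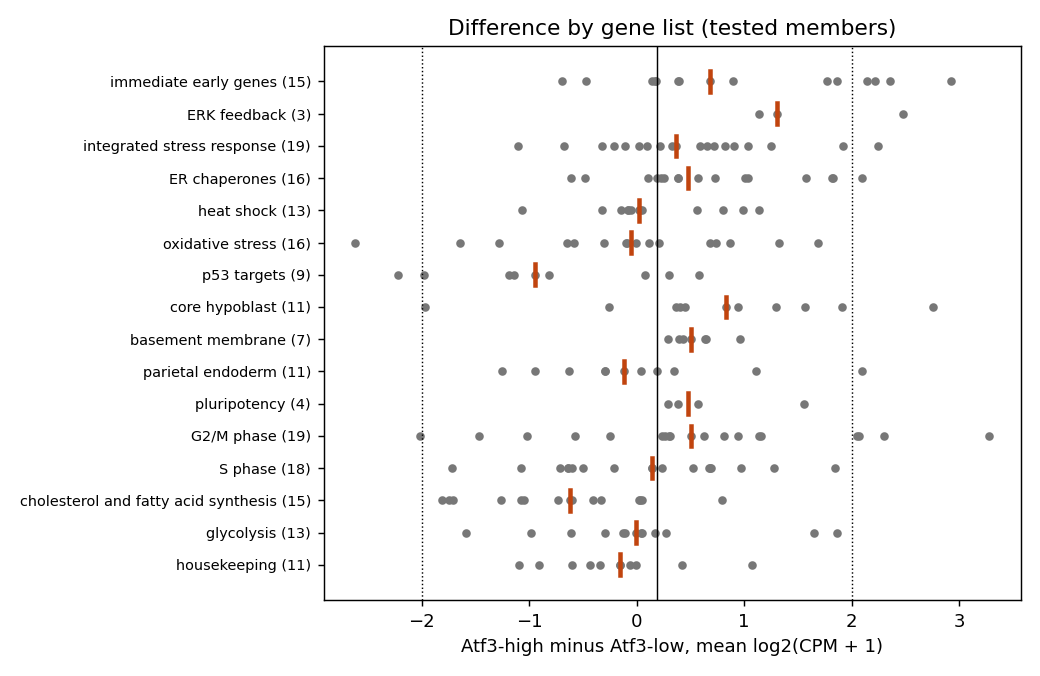
Difference between Atf3-high and Atf3-low cells in mean log2(CPM + 1) for the members of 16 gene lists that passed the filter on low values (their number in brackets), with the list median as an orange bar, the median of all 6117 records as a solid line and differences of 2 and −2 as dotted lines. The immediate early genes have 4 of 15 members past 2 and the heat shock genes 0 of 13, beside 7.77% of all compared records higher by 2 or more and 3.38% lower. Without C46, 2 of 13 immediate early members were higher by 2 or more. Most members of each list lie between the dotted lines.

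Hypoblast identity genes were expressed in both classes. Gata6 was 30.4 to 561 CPM (median 285) in the Atf3-high cells and 0 to 588 CPM (median 256) in the Atf3-low cells, with mean CPM values of 271 ± 139 and 277 ± 202 (SD over 10 and 9 cells). Gata4 was 48.6 to 583 CPM (median 424) in the Atf3-high cells and 0 to 757 CPM (median 259) in the Atf3-low cells. Dab2, an endocytic adaptor, reached 5 CPM in 10 of 10 and 8 of 9 cells, and Pdgfra, the PDGF receptor of primitive endoderm, in 8 and 9. The differences were 0.83 for Gata6, 1.30 for Gata4, 1.56 for Dab2, 0.45 for Pdgfra and 0.40 for Foxa2, a pioneer factor of endoderm. Much of these rested on the cells without the gene: Gata6 differed by −0.043 without C40, Gata4 by 0.45 without C46 and Foxa2 by −0.12 without C46. Without C24, Dab2 differed by 0.71, and without C38 Pdgfra by 0.023. Of 18 core hypoblast genes 11 passed the filter, and 1 (Sox7) was higher by 2 or more, beside 7.77% of all compared records. The median was 0.83 beside 0.19, and 9 of 11 members (81.8%) were above 0 beside 57.1%. Without C46 the median was 0.45 beside 0.15. The immediate early list had medians of 0.68 with C46 and 0.87 without it, so leaving out C46 changed which of these 2 lists had the higher median. Leaving out C15 did so too. The immediate early median was then 1.20, and the core hypoblast median was at most 1.18 whichever cell was left out. Without C46 Sox7 was still higher by 2 or more, and 1 member, Cubn, was lower.

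The SOX factors of endoderm, Sox7 and Sox17, had the largest positive differences of the 11 compared core hypoblast genes. Sox7 was 0 to 268 CPM (median 14.4) in the Atf3-high cells and 0 to 47.8 CPM (median 0) in the Atf3-low cells. It reached 5 CPM in 6 of 10 and 2 of 9 cells, and C96, C44, C37 and C13 were above the whole Atf3-low range. The difference was 2.75, 2.27 without C96 and 2.60 after thinning, when 5 of 10 and 1 of 8 cells had a read. Sox17 was 15.8 to 138 CPM (median 46.4) in the Atf3-high cells and 0 to 94.2 CPM (median 11.1) in the Atf3-low cells, with a difference of 1.91 that was 1.16 after thinning. It was above 0 in all 10 Atf3-high cells and in 7 of the 9 others.

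Basement membrane genes, the main secreted product of parietal endoderm, differed by less once C46 was left out. Lama1, which encodes a laminin chain, was 775 to 5711 CPM (median 3895) in the Atf3-high cells and 126 to 6908 CPM (median 2791) in the Atf3-low cells. The differences were 0.65 for Lama1, 0.43 for Lamc1, 0.64 for Col4a1 and 0.51 for Sparc. Without C46, whose Col4a1 was 21 CPM, they were 0.15, 0.029, −0.12 and 0.092. The median of the 7 compared members was 0.51 with C46 and 0.15 without it, beside 0.15 for all records. Of the 14 parietal endoderm genes 11 passed, with a median of −0.12, or −0.53 without C46. The direction turned with the Atf3 threshold at 5 CPM, to 0.48, at 200 CPM, to 0.82, and with a record minimum of 3500, to 0.19. Ctsl, the abundant cathepsin L gene, was 3128 to 47242 CPM (median 12064) in the Atf3-high cells and 357 to 45984 CPM (median 13425) in the Atf3-low cells, and differed by −0.29, or −0.92 without C46. Snai1, an epithelial-mesenchymal transition factor on this list, was 0 to 288 CPM (median 33.8) in the Atf3-high cells and 0 to 122 CPM (median 0) in the Atf3-low cells, and its difference of 2.09 lay below 2 without any 1 of C05, C13, C32, C33, C37, C38, C40, C43, C44, C46 and C80. Of 21 visceral endoderm genes 4 passed the filter and 0 were past 2. Apoe differed by 1.31, or 0.15 without C46, which had no Apoe read, and Cubn, the cubilin receptor, by −1.97, or −2.85 without C46. Transthyretin, Ttr, had no read in either class.

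**Figure D4:**
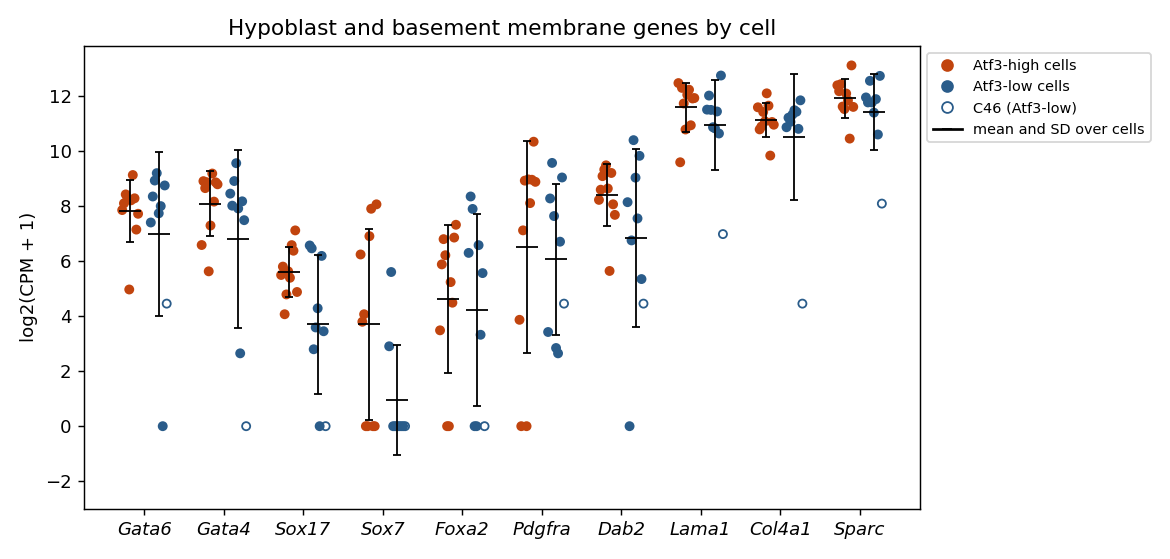
Levels of 10 hypoblast and basement membrane genes, as log2(CPM + 1), with a point for each of the 10 Atf3-high (orange) and 9 Atf3-low (blue) cells, C46 as an open point, and bars for the mean and SD over cells. The classes overlap for every gene, and C46 holds the lowest value of Lama1, Col4a1 and Sparc.

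Markers of other cell types were read in both classes, with their defining genes mostly at or near 0. The summed level of the 13 fibroblast genes was 0 to 14.3 CPM in the Atf3-high cells, and 0 to 1164 CPM in the Atf3-low cells, with a median of 0 and the maximum in C46. Of the 13, 11 and 9 had no read. Summed pluripotency genes were 317 to 1928 CPM (median 727) against 110.5 to 884 CPM (median 409.9), with 2 and 1 of 11 recorded genes at 0. Pou5f1 reached 5 CPM in 1 cell of each class and Nanog in 3 and 1 cells, and Sox2 had no read in the Atf3-high class. These 3 did not pass the filter. Klf4, which is both a pluripotency and a stress-responsive factor, reached 5 CPM in 10 of 10 and 8 of 9 cells and differed by 0.39. The trophoblast sum was 232 to 1377 CPM against 31.5 to 969.7 CPM, with the defining factors Cdx2, Elf5 and Gata3 at 0 in both. The neural sum was 12.3 to 398 CPM against 2.64 to 226 CPM, and the blood sum 0 to 232 CPM against 0 to 899 CPM, with the haemoglobin genes at 0 and the maximum in C24. The summed ranges overlapped for every list, and the part of these levels in the differences was not tested. Nes, the neural filament gene nestin, and Pecam1, the endothelial adhesion gene, were higher by 2.09 and 2.24, from levels of at most 108 and 232 CPM. Nes lay below 2 without any 1 of C13, C15, C23, C27 and C96, and Pecam1 without any 1 of C13, C15, C23 and C72. Krt19, an epithelial keratin, was 0 to 257 CPM (median 41.7) in the Atf3-high cells and 0 to 115 CPM (median 0) in the Atf3-low cells, a difference of 2.77, and the direction turned, to −0.47, with the Atf3 threshold at 5 CPM. In the LIF pathway Jak2, the kinase below the cytokine receptor, was higher by 2.40 with 5 of 10 and 1 of 9 cells at 5 CPM, and below 2 without any 1 of C13 and C33. Cdh1, which encodes E-cadherin, differed by −0.86.

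Cell cycle genes differed between the classes in a mixed way. Of 19 compared G2/M genes, 4 were higher by 2 or more and 1 was lower, beside 7.77% and 3.38% of all compared records. The median was 0.50 beside 0.19, and 14 of 19 members (73.7%) were above 0 beside 57.1%. Among the 15 compared immediate early genes 4 were higher by 2 or more, with a median of 0.68. Without C46, 3 G2/M genes were higher and 0 lower, with a median of 0.63 beside 0.15. Cdc20, an activator of the anaphase-promoting complex, was 0 to 605 CPM (median 132) in the Atf3-high cells and 0 to 944 CPM (median 0) in the Atf3-low cells. It reached 5 CPM in 9 of 10 Atf3-high and 3 of 9 Atf3-low cells, and after thinning a read was found in 8 of 10 and 3 of 8. The difference was 3.28, yet the 2 highest cells, C25 and C05, were Atf3-low, and the log2 ratio of mean CPM + 1 was −0.062. Cenpf, a kinetochore protein gene, was higher by 2.30 with a log2 ratio of means of −0.41. Without any 1 of C24, C26, C32, C37, C40, C43, C46 and C80 it lay below 2. Ccnb2 and Kif20b were higher by 2.06 and 2.05, and Kif11, a mitotic motor, differed by −2.01. These 3 are near the limit of 2, and leaving out any 1 of 10, 11 and 13 cells took them within it. Those cells were C24, C26, C27, C33, C37, C38, C43, C72, C80 and C96 for Ccnb2. For Kif20b they were C23, C26, C27, C32, C33, C37, C38, C40, C43, C72 and C80. For Kif11 they were C05, C13, C15, C23, C24, C25, C27, C32, C33, C38, C44, C46 and C72. Ccnb1, the cyclin of mitotic entry, was 0 to 1618 CPM (median 171) in the Atf3-high cells and 10.6 to 1605 CPM (median 329) in the Atf3-low cells, a difference of −0.57 that turned to 0.18 without C15 and to 0.36 by the log2 ratio of mean CPM + 1. S phase genes had 18 compared members with a median of 0.14 and 0 past 2.

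Genes of housekeeping and metabolism had medians between −0.62 and 0.12, and 0 were past 2. Glycolysis genes had a median of −0.0052 over 13 members, and housekeeping genes −0.16 over 11. Of the 11 housekeeping genes 2 (18.2%) were above 0, beside 57.1% of all compared records. Without C46, 5 of 11 (45.5%) were above 0 beside 55.6%, with a median of −0.099 beside 0.15. In 3 families taken by symbol after values had been seen, the medians were −0.14 for 79 cytosolic ribosomal protein genes, 0.12 for 33 proteasome subunit genes and −0.076 for 71 respiratory chain genes. Of the ribosomal protein genes, 20 of 79 were above 0 (25.3%), beside 57.1% of all compared records. Of 15 compared cholesterol and fatty acid synthesis genes, 4 had a difference above 0 (57.1% of all records did), and the median was −0.62. Without C46, 1 of 15 was above 0 and the median was −0.99. The direction turned with the Atf3 threshold at 5 CPM, to a median of 0.041, and with a record minimum of 3500, to 0.019. None of the 15 was past 2. Elovl6, a fatty acid elongase gene, was 0 to 1676 CPM (median 457) in the Atf3-high cells and 135 to 1891 CPM (median 605) in the Atf3-low cells, a difference of −1.26. Fdps, Hmgcs1 and Fdft1, enzymes of sterol synthesis, differed by 0.019, 0.79 and −0.40. Their signs rested on single cells: without C46 Fdps differed by −0.20 and Fdft1 by −1.20, without C33 Fdft1 by 0.26, and Hmgcs1 by −0.04 without C32 and 1.62 without C44.

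The genome-wide extremes were genes outside these lists. Atf3 aside, the 10 largest differences among symbols where no cell held over 50% of the higher class's signal were 4.0 to 5.35. Sh2d4a, an SH2 domain adaptor gene, was 12.2 to 739 CPM (median 249.7) in the Atf3-high cells and 0 to 269 CPM (median 0) in the Atf3-low cells. It reached 5 CPM in all 10 Atf3-high and 3 of 9 Atf3-low cells, but 1 Atf3-low cell, C38, had 269 CPM, above several Atf3-high cells. Fzd6, a Wnt receptor, was 24.3 to 1322 CPM (median 453) in the Atf3-high cells and 0 to 541 CPM (median 23.7) in the Atf3-low cells, and Ncstn, the nicastrin subunit of gamma-secretase, was 247 to 533 CPM (median 332) in the Atf3-high cells and 0 to 441 CPM (median 36.9) in the Atf3-low cells. Ncstn had a tight range in the Atf3-high class, while 5 of 9 Atf3-low cells reached 5 CPM. Clk1, a kinase of splicing factors, was 115 to 529 CPM (median 222) in the Atf3-high cells and 0 to 285 CPM (median 15.9) in the Atf3-low cells. Wdr3 was 7.91 to 247 CPM (median 137) in the Atf3-high cells and 0 to 45.5 CPM (median 2.98) in the Atf3-low cells. The others were Commd8 (4.20), St6galnac3, a sialyltransferase gene (4.17), Pus7, a pseudouridine synthase gene (4.06), Prkd3, a protein kinase D gene (4.0), and Synrg (4.0).

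In the other direction the 10 differences ran from −3.72 to −4.84. Aacs, the enzyme that feeds ketone bodies into lipid synthesis, was 0 to 191 CPM (median 0) in the Atf3-high cells and 13 to 1091 CPM (median 59.7) in the Atf3-low cells. Mtrr, methionine synthase reductase, was 0 to 63.2 CPM (median 0) in the Atf3-high cells and 10.5 to 199 CPM (median 32.5) in the Atf3-low cells, and C23 was the 1 Atf3-high cell with a read of it at 5 CPM. Nampt, the rate-limiting enzyme of NAD salvage, was 0 to 124 CPM (median 0) in the Atf3-high cells and 9.02 to 401 CPM (median 192) in the Atf3-low cells. All 9 Atf3-low cells reached 5 CPM of Aacs, Mtrr and Nampt, against 3, 1 and 4 of 10 Atf3-high cells. Cd81, a tetraspanin gene, was 0 to 31.7 CPM (median 0) in the Atf3-high cells and 0 to 358 CPM (median 136) in the Atf3-low cells, and Maoa, monoamine oxidase A, reached 5 CPM in 1 of 10 and 7 of 9 cells, a difference of −4.31. The others were Pigs, part of the GPI transamidase (−4.28), Madd (−4.17), Lrrc40 (−3.77), Ccs, the copper chaperone of superoxide dismutase (−3.74), and Nif3l1 (−3.72). None of these 20 genes moved within 2 when any 1 cell was left out. They were picked as extremes of 6117 records, so a large size is what picked them, and the classes overlapped for each. With the threshold at 5 CPM the differences of Ccs, Nif3l1, Aacs, Synrg and Fzd6 were within 2, at −0.49, −1.03, −1.70, 0.50 and 1.75. At 200 CPM that of Prkd3 was 1.53. By the log2 ratio of mean CPM + 1, Ncstn (1.51), Clk1 (1.92), St6galnac3 (1.80) and Nif3l1 (−1.66) were within 2. With 10 CPM added before taking logs, Lrrc40 (−1.88) and Nif3l1 (−1.99) were within it.

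**Figure D5:**
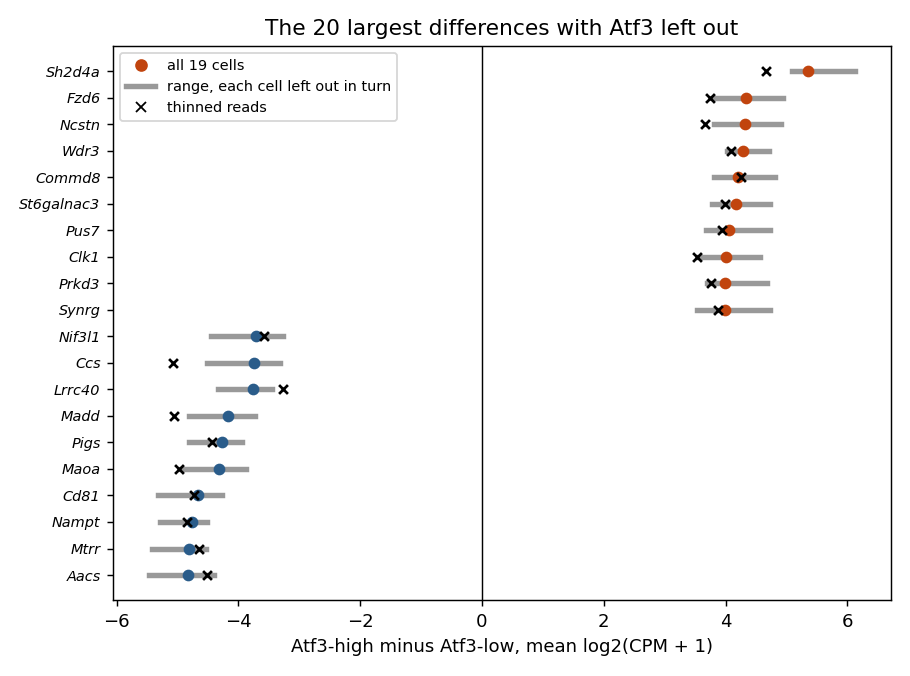
The 10 largest (orange) and 10 most negative (blue) differences in mean log2(CPM + 1) between Atf3-high and Atf3-low cells, Atf3 left out, with the range over leaving out each of the 19 cells in grey and the value after thinning to 100000 reads as a cross. With all 19 cells the values run from −4.84 for Aacs to 5.35 for Sh2d4a, and no grey range reaches 0.

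A cell the rule left out allowed a look at the same genes. C10 had 109 CPM of Atf3 but fell short of the record minimum. Of the 474 records other than Atf3 that were higher in Atf3-high cells by 2 or more, C10 lay above the middle of the 2 class means in 198 (41.8%). It did so for 72 of the 207 records (34.8%) that were lower by 2 or more, and for 39.9% of all 6116 records. Fos was 2.38 CPM in C10, Klf6 846, Dusp1 0 and Zfp36 0. The share among the higher records was thus close to that among all records, in 1 cell. In the bulk library Atf3 had 10 reads, or 212 CPM (exact Poisson 95% interval 102 to 390.3), within the range of the Atf3-high cells, and Fos had 2 reads.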

How the data were processed

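Messenger RNA of 34 single rat cells and 1 bulk library was measured. The deposited table holds whole-number read counts for 17201 RefSeq transcript records, and 16215 records were matched by identifier to a symbol in a RefSeq gene table; the rest held 3.88% of the reads of the 19 cells and stayed in the totals. The submitters' processing notes name TopHat2 and rn5; the counter, the strand setting and the handling of multiply mapped reads are unknown here (not given in the sources used here), so counts of near-identical or overlapping genes are uncertain. No molecular identifiers are mentioned, and even counts made up 62.1% to 70.4% of nonzero counts in the 19 cells, so amplified copies may count as several reads.

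CPM was computed from column totals and differences from log2(CPM + 1). Adding 1 CPM shrinks differences of low genes, but the mean of logs also gives weight to cells without a read. It can thus exceed the log2 ratio of mean CPM + 1, as for Cdc20 (3.28 against −0.062) and Sh2d4a (5.35 against 2.87). For other genes it fell below that ratio, as for Chac1 (2.25 against 3.74). Records with a mean of at least 10 CPM and 5 CPM or more in at least 5 of the 19 cells were kept. All cells count as 1 sample, so no test was run and SDs describe cells. No doublets were called. None of the 171 pairs of cells held identical counts. The calculation was checked on simulated counts. Genes named are the markers, key lineage genes, the 4 most abundant tested members of each of 28 lists, tested list members past a difference of 2, and the 10 largest and 10 most negative differences where no cell held over 50% of the higher class's signal. The members and lists were chosen with earlier results of these data known. Alternatives covered both thresholds, pseudocounts, TMM factors (edgeR 4.0.16, R 4.3.3), totals without Rn45s, filters, other averages, thinning and leaving out cells. Python 3.11.15, numpy 2.4.6, pandas 2.3.3 and scipy 1.17.1 were used.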

Additional observations from a re-analysis of the deposited data

Results flagged for a closer look

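Among 233 sets of 9 or 10 cells examined, 34 had a cell far from all others of its class, where chance flags about 1 in 20, and many hold zeros, for which 1 nonzero cell is enough. C46 accounts for 12 of the 34. It is the Atf3-low cell with Col1a2. Its mean log2(CPM + 1) was 1.78 over the core hypoblast list and 3.92 over the basement membrane list, the lowest of its class. It also had the lowest CPM of Lama1 (126), Lamc1 (241), Col4a1 (21), Sparc (273), Ctsl (357), Sars1 (62.9), Wars1 (0), Apoe (0) and Cubn (0), and the highest of Spry4 (41.9).

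Other Atf3-low cells stood above their class in Pou5f1 (C40, 18 CPM), Sox2 (C43, 6.64), Chac1 (C32, 6.18), Nes (C32, 52.5), Jak2 (C26, 133), Synrg (C32, 154), Prkd3 (C05, 146) and Pus7 (C40, 67.7).

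In the Atf3-high class C33 was low in Gata6 (30.4 CPM), Fzd6 (24.3), Asns (0) and Elovl6 (0), C44 in Dab2 (49.1) and Hmgcs1 (0), C80 in Btg2 (0), C27 in Wars1 (0), and C23 in the postimplantation epiblast list (mean log2 of 0). High cells were C72 for Pou5f1 (64.5 CPM), C96 for Xpc (11.4), C23 for Mtrr (63.2) and Maoa (59.3), and C80 for Cd81 (31.7). Outside the 19 cells, Atf3 exceeded what a count of 0 allows in C10, at 109 CPM, and in the bulk library, at 212 CPM.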

How the results depend on the processing

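The counts of 475 higher and 207 lower records depend on the settings. They were 1537 and 869 at a difference of 1 or more, 91 and 48 at 3, 1064 and 530 when 0.1 CPM was added before taking logs, 35 and 13 when 10 CPM was added, 1021 and 612 with the median over cells, 278 and 113 over records with a mean of at least 50 CPM, and 361 and 296 by the log2 ratio of mean CPM + 1. With all 34 cells they were 2091 and 15, where 14 of the 15 added cells, all with fewer records, fall in the Atf3-low class. That setting also gave list medians of 2.05 (integrated stress response), 1.04 (heat shock), 2.21 (core hypoblast) and 2.29 (basement membrane), beside 1.44 for all records. Lower records were 482 with the threshold at 5 CPM, 340 at 200 CPM and 441 with at least 4500 records. The basement membrane median was 1.49 at 5 CPM, where C46 is 1 of 4 Atf3-low cells. Krt19 turned to −0.47 at 5 CPM, Cdc20 and Cenpf to −0.062 and −0.41 by the ratio of means, and the blood list to −0.30 without a filter, which adds members. The parietal endoderm and lipid synthesis medians also turned under several settings, among them 5 CPM (0.48 and 0.041) and at least 3500 records (0.19 and 0.019). For all but the blood list the cause was not tested.

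The immediate early list's median stayed above 0, from 0.34 to 1.86, under every alternative run, and above that of all records except with all 34 cells (1.15 beside 1.44). Leaving out each cell gave 445 to 589 higher and 220 to 257 lower records, and list medians of 0.52 to 1.20 (immediate early), 0.17 to 0.66 (integrated stress response), −0.11 to 0.13 (heat shock), 0.45 to 1.18 (core hypoblast) and 0.15 to 0.71 (basement membrane). TMM factors gave 472 and 205, totals without Rn45s 475 and 207, and thinning 485 and 290, with 335 and 158 records in common. Leaving out C46 and C96, chosen after seeing the data, gave 445 and 286. No paired analysis was possible because each cell falls in 1 class and the labels pair no cells across the classes. Depth limits low genes, since 1 read was worth up to 10.5 CPM in an Atf3-low cell.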
